A study of Mus musculus with 113 samples.

Results

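The mouse Akr1b genes encode 4 closely related aldo-keto reductases, and their mRNA was followed in 92 RNA-seq libraries of preimplantation embryos in which the nuclear receptor NR5A2 or its relatives had been perturbed. The members were the genes named Akr1b3, Akr1b7, Akr1b8 and Akr1b10 in the deposited tables, 4 of the 24006 genes that each table lists. They were chosen by their FPKM in these same libraries, because Akr1b8 was listed at 0 after Nr5a2 knockdown (KD) in 8-cell (8C) embryos. That experiment is therefore described here without a test, and the other experiments carry the tests.

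All embryos were labelled wild type and were injected with RNA. In the KD experiments, pools of embryos received siRNA against Nr5a2, Rarg, Nr1h3 and Nr2c2, labelled as 5 μM each. Per the study's methods, each gene had several siRNAs, each of them at a lower concentration. The receptors were targeted all 4 together (4KD), 3 of the 4 (3KD, named by the receptor that was spared) or 1 at a time. Negative control (NC) embryos were labelled with control siRNA at 20 μM beside the 4KD, 15 μM beside the 3KD and 5 μM beside the single KD. The 4KD was collected at the 4-cell (4C) and 8C stages, and a separate Nr5a2 KD at the 2-cell (2C) stage was labelled with 20 μM siRNA for both arms. The study's supplementary table lists a lower concentration for these embryos than the labels do. Each of these 16 groups had 2 libraries. In the base editing experiment, single embryos received base editor mRNA alone (BE, 8 embryos at 2C and 8 at 8C), an sgRNA against Nr5a2 alone (sgRNA, 8 and 8) or both (BE + sgRNA, 14 and 14), each RNA at 100 ng/μl, which mutates the gene rather than removing its mRNA. Embryos came from superovulated C57BL/6N females mated with PWK/PhJ males, so both strains' reads were mapped to the same reference. The labels do not say that libraries of a group came from separate females, so p-values measure the spread between these libraries. In a bulk library, fewer cells and less RNA per cell cannot be told apart.

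Aldo-keto reductases of the 1B subfamily use NADPH to reduce aldehydes and ketones. Akr1b3 is aldose reductase, which turns glucose into sorbitol in the first step of the polyol pathway, and Sord oxidises that sorbitol to fructose. Akr1b7 is best known from the adrenal cortex and the vas deferens and Akr1b8 as a growth factor-induced enzyme that reduces lipid-derived aldehydes, while the mouse gene named Akr1b10 has been studied less. NR5A2 is an orphan nuclear receptor that binds DNA as a monomer at sites built on the letters AGGTCA.

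The members lie side by side on chromosome 6. In the mm9 build, with GENCODE vM1 genes, Akr1b3 (ENSMUSG00000001642.11) spans chr6:34253934-34267497 on the minus strand, followed on the plus strand by Akr1b8 (ENSMUSG00000029762.6, chr6:34304119-34318463), Akr1b10 (ENSMUSG00000061758.6, chr6:34334218-34346950) and Akr1b7 (ENSMUSG00000052131.7, chr6:34362334-34373142). Each transcript has 10 exons and 951 coding bases. The nearest genes on either side that the tables list are Slc35b4, a nucleotide sugar transporter, and Bpgm, which makes 2,3-bisphosphoglycerate. The noncoding gene Gm14546 overlaps Akr1b3 on the other strand, Gm13857 overlaps the end of Akr1b7, and the pseudogenes Gm13859 and Gm13858 lie between Akr1b8 and Akr1b10. The Smart-seq2 libraries do not mark strand, so reads from overlapping genes cannot be told apart.

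The 3 plus-strand genes are near copies of each other. Their coding sequences were 89.3% identical between Akr1b7 and Akr1b10, 84.9% between Akr1b7 and Akr1b8 and 84.8% between Akr1b8 and Akr1b10, whereas Akr1b3 shared 71.0% to 72.1% with the others. The longest stretch without a difference was 80 bases, between Akr1b8 and Akr1b10. The 104 coding bases around that stretch, coding bases 463 to 566 of each gene on the mRNA strand, are shown because reads from it can fit more than 1 member. Capitals mark differences from Akr1b8, of which Akr1b10 has 3, Akr1b7 has 6 and Akr1b3 has 26.
Akr1b8: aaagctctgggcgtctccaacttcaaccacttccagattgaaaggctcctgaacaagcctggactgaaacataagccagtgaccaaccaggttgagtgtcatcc
Akr1b10: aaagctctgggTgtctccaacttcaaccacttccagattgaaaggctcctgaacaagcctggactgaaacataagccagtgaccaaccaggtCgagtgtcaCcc
Akr1b7: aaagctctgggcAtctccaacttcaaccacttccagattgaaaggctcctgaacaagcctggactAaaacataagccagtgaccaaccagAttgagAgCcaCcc
Akr1b3: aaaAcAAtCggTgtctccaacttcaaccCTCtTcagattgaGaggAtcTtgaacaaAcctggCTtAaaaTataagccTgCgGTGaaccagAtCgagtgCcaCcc
Counted in windows of 50 bases, Akr1b8 and Akr1b10 shared 31, Akr1b7 and Akr1b10 shared 14, Akr1b7 and Akr1b8 shared 3, and Akr1b3 shared 0 with the other members. A low value of 1 member beside a high value of another can hold shared reads, which was not tested.

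The members differed widely in level. Akr1b8 had a median of 6.24 FPKM over the 92 libraries and a range of 0 to 77.8 FPKM. It was above Akr1b10 in every 8C NC library and below it in both 2C NC libraries. It reached 5 FPKM in 52 libraries and was listed at 0 in 13. Akr1b10 ranged from 0 to 22.3 FPKM with a median of 0.263 FPKM, and reached 5 FPKM in 14 libraries, 12 of them at 2C. Akr1b7 never exceeded 3.04 FPKM and was listed at 0 in 60 libraries. FPKM is read fragments scaled to transcript length and to the fragments mapped in the library, so these levels are per length and can be compared between genes. An FPKM of 0 is a listing rather than proof of absence, because Gapdh, Sdha, B2m and Pgk1, which all cells use, were also each listed at 0 in 1 library, and Rps18 in 7.

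Akr1b3 had values that cannot be read as an expression level. It was listed above 0 in 87 of 92 libraries, yet never above 0.00421 FPKM, while the lowest values above 0 of Akr1b7, Akr1b8 and Akr1b10 were 0.253, 0.295 and 0.231 FPKM. Only 5 of the 24006 genes shared this pattern of values above 0 in at least 80 libraries that never reached 0.01 FPKM. The relative depth of each library, read from the spacing of its low FPKM values and scaled to a median of 1, ranged from 0.364 to 1.52. Multiplied by that depth, the 87 values of Akr1b3 varied by a coefficient of variation of 5.11%, against 33.5% before, so little of their spread was left for stage or treatment. A search of the mm9 genome with the Akr1b3 transcript found 4 other loci on 4 chromosomes with at least 90% identity over at least 50% of its length, the best of them at 91.5% to 99.7% identity. For Akr1b10 there was 1 such locus, at 91.6%, and for Akr1b7 and Akr1b8 there were 0. How reads were shared among such copies was not tested, and no statement on aldose reductase mRNA can be drawn from these tables.

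Library quality set limits on the values that follow. FPKM sums ranged from 83392 to 556462 and genes at 1 FPKM or more from 5472 to 11921. The summed level of the 2C genes among the stage markers had a median of 121 FPKM at 2C and 2.23 FPKM at 8C, that of the 8C genes 33.9 and 218 FPKM, and the embryo gene Pou5f1 was at 9.10 FPKM or more in every library. Cumulus cell genes summed to at most 19.2 FPKM, with a median of 0.842 FPKM at 2C. The deposited column names put 3 single embryos at the 4-cell stage, which goes against their labels (replicate 8 of the 2C sgRNA group, replicates 13 and 14 of the 8C edited group), and replicate 2 of the 2C sgRNA group and replicate 8 of the 8C edited group had the lowest FPKM sums of single embryos at their stages. Akr1b8 was listed at 0 in all 5 of them, so the fitted differences of Akr1b8 between stages and after editing, and that of Akr1b10 after editing at 2C, are given with and without them.

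In the 8C pools, Akr1b8 mRNA was low where Nr5a2 siRNA had been injected. In the 14 libraries of 7 groups that received no Nr5a2 siRNA, Akr1b8 ranged from 5.35 to 77.8 FPKM with a median of 15.7 FPKM, and all 14 were at 5 FPKM or more. In the 8 libraries of the 4 4KD and 3KD groups with Nr5a2 siRNA it ranged from 0.295 to 10.5 FPKM with a median of 2.58 FPKM, and 2 of 8 reached 5 FPKM. The ranges overlapped, because both 8C 4KD libraries lay above the lowest Rarg KD library. Both libraries of the single Nr5a2 KD, whose values chose the members, were listed at 0. The 14 libraries include their NC, at 17.6 and 43.2 FPKM, against which the members were chosen. The libraries come from separate experiments and are not replicates of 1 condition. NC embryos alone were at 13.2 and 13.8 FPKM in the 3KD experiment and 41.6 and 77.8 FPKM at 8C in the 4KD experiment.

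**Figure D1:**
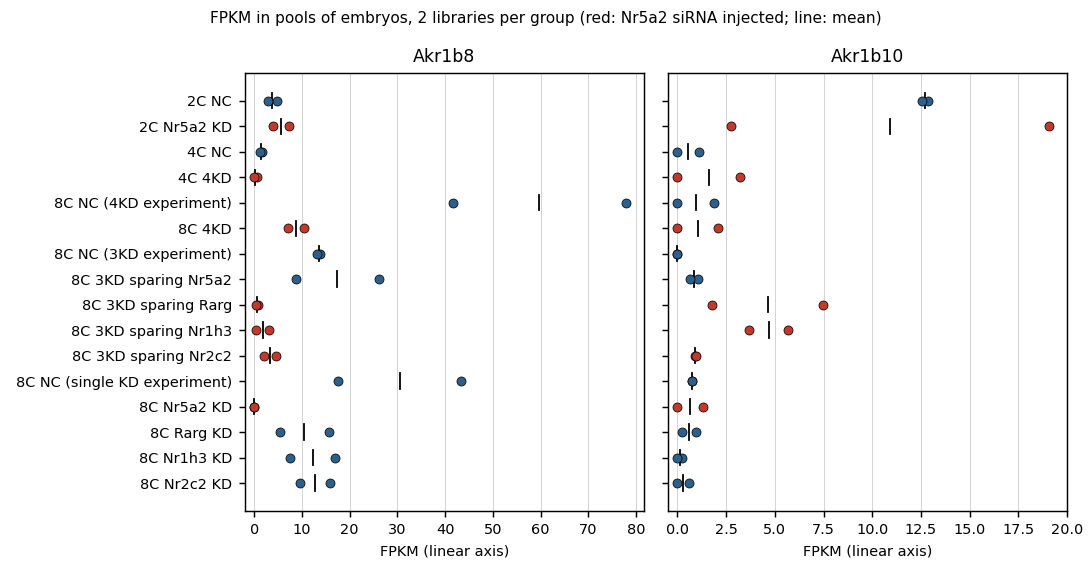
FPKM of Akr1b8 (left) and Akr1b10 (right) in the 32 pooled libraries, 2 points per group with the mean as a vertical line, on linear axes that differ in range. Red points received Nr5a2 siRNA, and the Nr5a2 KD and NC points of the single KD experiment chose the members. At 8C every Akr1b8 point without Nr5a2 siRNA lies at 5.35 FPKM or more, and the red points lie at 10.5 FPKM or less.

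In the 4KD experiment at 8C, Akr1b8 was 41.6 and 77.8 FPKM in NC embryos and 7.12 and 10.5 FPKM in 4KD embryos. Both 4KD libraries lay below both NC libraries. The log2 fold change was -2.59 (SE 0.52) on the scale of log2(FPKM + 1), on which all fold changes here are given, with an adjusted p of 0.256 by limma with Benjamini-Hochberg adjustment (unadjusted p 0.000697), and a gene was called only at an adjusted p below 0.01 with a log2 fold change of 2 or more in size, so Akr1b8 was not called. None of the 10476 genes tested with limma was called in this comparison (0%, with 784 genes at an unadjusted p under 0.05). Of the 10476 genes, 19.2% also had every KD library below every NC library, and among the 4 members Akr1b8 was the 1 that did. The 4KD experiment held the shallowest libraries, with relative depths of 0.364 to 0.747. Nr5a2 mRNA itself was 27.1 and 30.3 FPKM in NC and 3.90 and 6.91 FPKM in 4KD embryos.

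Akr1b8 was near the floor 1 division earlier. At 4C it was 1.59 and 1.13 FPKM in NC and 0.475 and 0 FPKM in 4KD embryos, a log2 fold change of -0.95 (SE 0.52, limma adjusted p 0.909), in a comparison that called 0% of genes and held 610 at an unadjusted p under 0.05. Both 4KD libraries lay below both NC libraries, as they did for 15.3% of the 10476 genes. From 4C to 8C the NC values went from 1.59 and 1.13 to 41.6 and 77.8 FPKM, with no overlap, and 16.2% of genes likewise had both 8C NC libraries above both 4C NC libraries. The log2 difference of 4.62 (SE 0.52) had an unadjusted p of 7.7e-06 and an adjusted p of 0.0504 by limma, so it was not called, nor was any other gene (0% of 10476, 776 at an unadjusted p under 0.05). This stage difference was the largest fitted change of any member in the pools where neither group was listed at 0. Nr5a2 mRNA at 4C was 26.8 and 31.7 FPKM in NC and 3.98 and 17.6 FPKM in 4KD embryos. The 4KD library with 17.6 FPKM of Nr5a2 was that with Akr1b8 listed at 0. It also had the lowest relative depth of all libraries.

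The 3KD experiment compared the receptors, since all 3KD groups shared the same NC libraries and differed in which siRNA was left out. NC embryos had 13.8 and 13.2 FPKM of Akr1b8. Embryos spared Nr5a2 siRNA, which received siRNA against Rarg, Nr1h3 and Nr2c2, had 8.64 and 26.2 FPKM, on either side of the NC values.
Embryos spared Rarg siRNA had 0.852 and 0.471 FPKM, those spared Nr1h3 siRNA 0.295 and 3.18 FPKM and those spared Nr2c2 siRNA 4.60 and 1.99 FPKM. All 6 libraries of these 3 groups, each of which received Nr5a2 siRNA, lay below both NC libraries and below both libraries spared Nr5a2 siRNA. Of 10626 genes tested, 4.99% had all 6 libraries below NC and 8.59% had both libraries of the group spared Nr5a2 above all 6. Among the 4 members Akr1b8 was the 1 that met either pattern.

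Against NC, the log2 fold change of Akr1b8 was 0.16 (SE 0.71, limma adjusted p 1) where Nr5a2 was spared. It was -3.14 (SE 0.71, limma adjusted p 0.241) where Rarg was spared, -2.64 (limma adjusted p 0.344) where Nr1h3 was spared and -1.83 (limma adjusted p 0.564) where Nr2c2 was spared. These comparisons called 0% of genes each, with 251, 664, 739 and 783 genes at an unadjusted p under 0.05 in the same order. The direct contrast of embryos spared Nr5a2 with the mean of the other 3KD groups was 2.69 (SE 0.58, unadjusted p 0.000685, limma adjusted p 0.0823). It was not called and neither was any other gene (0%, with 1075 genes at an unadjusted p under 0.05 and 30 at an adjusted p under 0.05). The 3KD fits above left out that same-numbered 3KD libraries deviated together. With a block for the library number, the contrast stayed at 2.69 (limma adjusted p 0.0208) and was again not called. Nr5a2 mRNA was 45.2 and 31.8 FPKM in the group spared its siRNA and 3.96 to 9.42 FPKM in the other 3KD libraries.

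In the single KD experiment, whose values chose the members, Akr1b8 was 17.6 and 43.2 FPKM in NC embryos and was listed at 0 in both Nr5a2 KD libraries. Nr5a2 KD was the 1 pooled group with no Akr1b8 value above 0. The other KD groups held values between, 5.35 and 15.6 FPKM after Rarg KD, 7.57 and 16.9 FPKM after Nr1h3 KD and 9.59 and 15.8 FPKM after Nr2c2 KD. All 6 of these libraries lay below both NC libraries too, as they did for 6.9% of 10163 genes, and the NC libraries are those against which the members were chosen. The log2 differences were -1.48, -1.21 and -1.10 beside a pooled SD of 0.71 between libraries of a group. For Nr5a2 KD, listed at 0, the size of a fitted difference is set by the pseudocount and is not read as a fold. In the Nr5a2 KD contrast 33.1% of genes had both Nr5a2 KD libraries below both NC libraries, and Akr1b8 was 1 of the 4 members to do so. Nr5a2 mRNA was 50.2 and 48.8 FPKM in NC and 9.65 and 12.8 FPKM in Nr5a2 KD embryos.

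The promoter of Akr1b8 is shown because its mRNA was low in the libraries with Nr5a2 siRNA. These are the 250 bases before the RefSeq start on the plus strand, chr6:34353896-34354145 in GRCm38.p6, a build other than that of the FPKM tables.
Akr1b8 promoter: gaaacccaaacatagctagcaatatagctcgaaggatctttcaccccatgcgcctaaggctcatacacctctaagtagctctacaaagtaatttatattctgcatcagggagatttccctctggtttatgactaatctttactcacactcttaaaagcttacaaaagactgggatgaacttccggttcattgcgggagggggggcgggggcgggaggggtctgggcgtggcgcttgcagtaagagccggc
The letters CAAGGTCA, CAAGGCCA and AGGTCA, searched on both strands, were not in this window. AGGTCA was found once in the promoter of Akr1b10, 215 bases before the start, and once in that of Akr1b7, 248 bases before the start, both on the minus strand. Of 32851 promoters of the same length, 1.56% held CAAGGTCA, 2.40% held CAAGGCCA and 16.3% held AGGTCA, which is contained in the first. Binding data were not used here, and absence of the letters says nothing about sites elsewhere.

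At the 2C stage, Akr1b8 was no lower in the KD libraries. It was 4.79 and 2.84 FPKM in NC and 7.26 and 3.96 FPKM in Nr5a2 KD embryos, which overlapped, with a log2 fold change of 0.44 (SE 0.51, limma adjusted p 0.920). In that comparison 2 of 11958 genes were called (0.0167%), neither of them a member. Nr5a2 mRNA was 19.4 and 24.3 FPKM in NC and 2.72 and 6.13 FPKM in KD embryos, so the siRNA target was low at this stage as well. Replicate 1 of the 2C NC came from another series of library numbers than the other 3 libraries, and without it the difference was 0.74 (limma adjusted p 0.584).

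In single embryos Akr1b8 rose from 2C to 8C. Over the 16 control embryos of each stage, injected with BE or sgRNA alone, it had a lowest value of 0, a median of 5.05 and a highest value of 34.7 FPKM at 2C, and 0, 28.2 and 75.8 FPKM at 8C. The stages overlapped at the ends, and 12 of 16 embryos at 8C but 2 of 16 at 2C held 10 FPKM or more. The log2 difference was 2.23 (SE 0.52, limma adjusted p 0.000138), which passed the limits, in a comparison that called 19% of 12991 genes. It was the 1 call of a member in the 13 comparisons tested. The difference sat near the fold limit, and it was 1.99 (limma adjusted p 0.000107) without the embryos that stand apart. It was 2.99 (limma adjusted p 2.7e-06) within the libraries of the eBE editor run, the only run with both control groups at both stages. The runs are inferred and not labelled. Some column names give an editor, eBE or BE4, and libraries without such a name were assigned to a run by their library numbers.

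Base editing of Nr5a2 gave no difference in Akr1b8 larger than the spread between embryos. At 8C the lowest, median and highest values were 7.77, 28.7 and 75.8 FPKM with BE, 0, 27.4 and 55.3 FPKM with sgRNA, and 0, 11.9 and 46.8 FPKM with BE + sgRNA. The edited embryos overlapped the controls over nearly their whole range. The log2 difference from the mean of both controls was -1.14 (SE 0.60, limma adjusted p 0.516), and a two-sided permutation test of the difference of means gave p = 0.102. No gene was called (0% of 9760, with 1058 genes at an unadjusted p under 0.05 and 16 at an adjusted p under 0.05).
Without the 3 edited embryos that stand apart, the difference was -0.24 (limma adjusted p 0.932, permutation p = 0.670 with 11 edited and 16 control embryos), and the median of edited embryos was 21.6 FPKM. Within runs it was -0.84 (limma adjusted p 0.297) in the eBE run and -0.34 (limma adjusted p 0.9985) in the BE4 run. The runs differed in the controls themselves, with 20.2 to 60.8 FPKM and a median of 34.9 FPKM in 8 eBE-run controls and 0 to 75.8 FPKM and a median of 15.4 FPKM in 8 BE4-run controls. Nr5a2 mRNA was not lower after editing (log2 difference 0.21 at 8C and 0.41 at 2C). The study reported mutated Nr5a2 reads and depleted NR5A2 protein in edited embryos at both stages. Which edited embryos carried the edit was not used here.

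**Figure D2:**
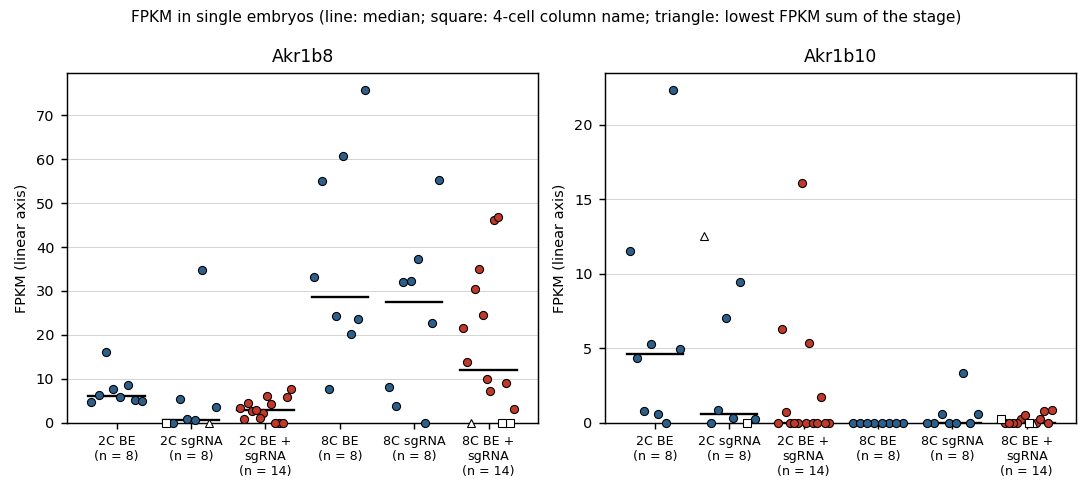
FPKM of Akr1b8 (left) and Akr1b10 (right) in 60 single embryos, 1 point per embryo, with the median of each group as a line, on linear axes that differ in range. Red points received BE and sgRNA, squares have a 4-cell column name and triangles the lowest FPKM sum of their stage. The 8C medians of Akr1b8 are 28.7, 27.4 and 11.9 FPKM, and Akr1b10 lies above 5 FPKM only at 2C.

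At 2C the lowest, median and highest values of Akr1b8 were 4.74, 6.06 and 16.0 FPKM with BE, 0, 0.679 and 34.7 FPKM with sgRNA and 0, 2.80 and 7.65 FPKM with BE + sgRNA. All 3 groups overlapped, with the highest median in BE embryos and the lowest in sgRNA embryos, and the BE4 run held no sgRNA embryo at this stage. The log2 difference was -0.57 (SE 0.42, limma adjusted p 0.604, permutation p = 0.254), in a comparison that called 0% of 12420 genes (1444 at an unadjusted p under 0.05). Without the 2 control embryos that stand apart at this stage, the limma value was -0.81 (limma adjusted p 0.424), and the difference of means was -0.88 (permutation p = 0.0657). The difference between the editing effects at 8C and 2C was -0.57 (SE 0.76, limma adjusted p 0.841), with 0% of 12991 genes called and 1258 at an unadjusted p under 0.05. These contrasts share their control embryos with the stage comparison.

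Akr1b10 had another stage pattern than Akr1b8. It was 12.8 and 12.5 FPKM in 2C NC pools, 0 and 1.09 FPKM in 4C NC pools and 0 to 1.88 FPKM in the 6 8C NC libraries. In single controls it had a lowest value of 0, a median of 2.59 and a highest value of 22.3 FPKM at 2C, and at 8C it was listed at 0 in 13 of 16 embryos with a highest value of 3.35 FPKM. The log2 difference from 2C to 8C was -1.60 (SE 0.37, limma adjusted p 0.000125), which passed the limit on p but not the limit on fold. Across the 22 group means of log2(FPKM + 1), Akr1b10 and Akr1b8 had a Pearson r of -0.37, a description over groups that share embryos of the same stages.

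The 3KD experiment also held the highest 8C values of Akr1b10. It was listed at 0 in both NC libraries, 1.08 and 0.644 FPKM where Nr5a2 was spared, 1.78 and 7.49 FPKM where Rarg was spared, 3.70 and 5.66 FPKM where Nr1h3 was spared and 0.888 and 0.961 FPKM where Nr2c2 was spared. All 8 KD libraries lay above the NC libraries, including those without Nr5a2 siRNA, as they did for 2.94% of 10626 genes. In this fit Akr1b10 passed the filter only through the groups spared Rarg and Nr1h3, at means of 4.64 and 4.68 FPKM. The fitted log2 differences were 2.28 where Rarg was spared and 2.48 where Nr1h3 was spared. With NC at 0, they depend on the pseudocount. The group spared Nr5a2 against the others gave -1.02 (SE 0.48). These differences are a description and no test. The single and quadruple KD did not hold such values, with 0 and 1.34 FPKM after Nr5a2 KD and 2.06 and 0 FPKM in 8C 4KD embryos.

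At 2C, Akr1b10 was 19.1 and 2.78 FPKM after Nr5a2 KD, on either side of the NC values, with a log2 fold change of -0.65 (SE 0.76, limma adjusted p 0.920). In single 2C embryos its lowest, median and highest values were 0, 4.64 and 22.3 FPKM with BE, 0, 0.586 and 12.5 FPKM with sgRNA and 0, 0 and 16.1 FPKM with BE + sgRNA, where 9 of 14 were listed at 0. The log2 difference of edited embryos was -0.97 (SE 0.50, limma adjusted p 0.451) and -0.90 without the embryos that stand apart (limma adjusted p 0.451). The fitted effect at 8C minus that at 2C was 0.99. At 8C, Akr1b10 did not pass the filter of a mean of 1 FPKM in any single-embryo group, so the value of 0.99 is a description and no test.

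Akr1b7 passed that filter in 4 of the 13 comparisons, those of the 4KD and the 2C KD experiments. Akr1b7 was 1.68 and 2.99 FPKM in 4C NC and 0 and 0.864 FPKM in 4C 4KD embryos (log2 fold change -1.26, SE 0.58). Both 4KD libraries lay below both NC libraries, as for 15.3% of genes. In the 4KD fit the mean of Akr1b7 was 2.34 FPKM in 4C NC and 0.432, 0.649 and 0.752 FPKM in the other groups. It passed the filter only through the group where it was high, so this difference is a description and no test. At 2C it was 1.12 and 3.01 FPKM in NC and 0 and 3.04 FPKM in KD embryos, which overlapped (log2 fold change -0.54, SE 0.76, limma adjusted p 0.930). At 8C it reached 1 FPKM in 3 of 54 libraries. The highest of these, 2.90 FPKM, was an edited embryo with a 4-cell column name.

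**Figure D3:**
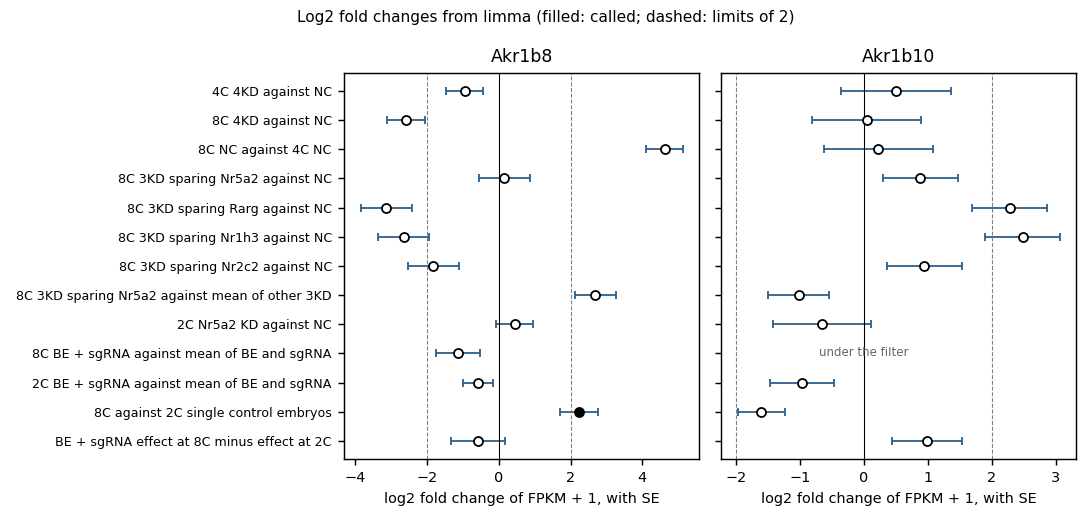
Log2 fold changes of Akr1b8 (left) and Akr1b10 (right) in the 13 comparisons tested, with SE bars, from limma on log2(FPKM + 1), on linear axes that differ in range. The 1 filled point, Akr1b8 at 8C against 2C in single controls at 2.23, was called. Points for Akr1b10 in the 3KD groups rest on NC libraries listed at 0. Points for Akr1b10 from the 3KD fit and from contrasts of 8C with 2C single embryos are a description and no test.

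The flanking genes were examined beside the members. Bpgm was 4.32 and 5.62 FPKM in 8C NC and 14.5 and 28.7 FPKM in 8C 4KD embryos, so that both 4KD libraries were above both NC libraries, as for 18.1% of genes (log2 fold change 1.85, SE 0.65, limma adjusted p 0.495). In the 3KD experiment its log2 fold changes were 1.43, 1.45 and 1.59 where Rarg, Nr1h3 and Nr2c2 were spared and -0.78 where Nr5a2 was spared, and the group spared Nr5a2 differed from the others by -2.27 (SE 0.67, limma adjusted p 0.233). None of these was called.
Bpgm also fell from 2C to 8C in single controls, by 4.87 on the log2 scale, while Akr1b8 rose. Slc35b4 was 4.56 and 4.59 FPKM in 8C NC and 3.28 and 3.47 FPKM in 8C 4KD embryos. Both 4KD libraries lay below both NC libraries, as for Akr1b8 and for 19.2% of all genes tested. Its log2 fold changes in the 8C 4KD and 3KD contrasts with NC were between -0.41 and 0.29. In the single KD experiment Slc35b4 was 3.69 and 3.44 FPKM in NC and 0.489 and 1.77 FPKM in Nr5a2 KD embryos. Both KD libraries lay below both NC libraries, as for 33.1% of all genes there. Bpgm was 4.93 and 2.25 FPKM in NC and 14.8 and 3.67 FPKM in Nr5a2 KD embryos, which overlapped.

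**Figure D4:**
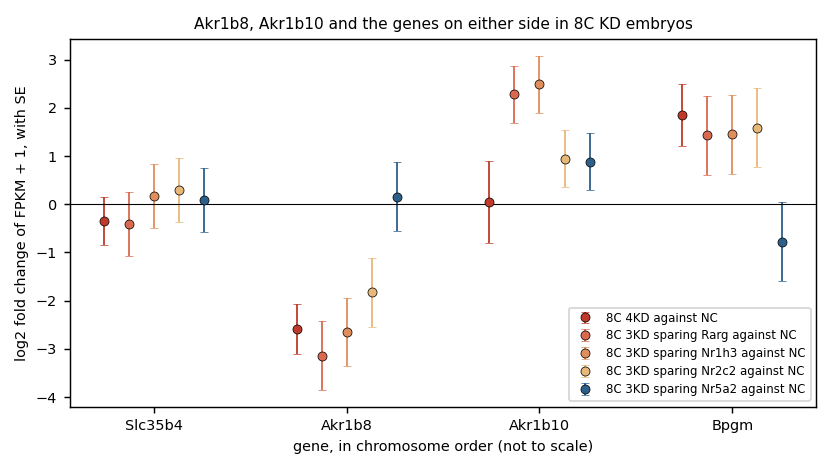
Log2 fold changes against NC, with SE bars, of Slc35b4, Akr1b8, Akr1b10 and Bpgm in the 8C 4KD and 3KD groups, from limma on log2(FPKM + 1), in chromosome order and not to scale. Akr1b8 lies at -1.83 or lower in the 4 groups with Nr5a2 siRNA and at 0.16 in the group spared it, whereas Bpgm lies between 1.43 and 1.85 and at -0.78.

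The genes whose group means were most like those of Akr1b8, among 9179 genes over the 22 groups, were Tspan17, a tetraspanin (Pearson r 0.91), Ppp4r1, a regulatory subunit of protein phosphatase 4 (0.90), and Plk5, a member of the polo-like kinase family (0.87). Spearman's rho named the same 3 genes. Tspan17 was 3.53 and 4.80 FPKM in 8C NC and 0 and 3.54 FPKM in 8C 4KD embryos, which overlapped. Ppp4r1 was 4.73 and 5.37 FPKM in 8C NC and 1.49 and 1.86 FPKM in 8C 4KD embryos, and Plk5 4.12 and 4.22 against 0 and 0.308 FPKM. In the Nr5a2 KD libraries, whose values chose the members, Plk5 was listed at 0 in both, beside 6.22 and 6.90 FPKM in their NC. There Tspan17 was 0 and 0.738 FPKM and Ppp4r1 0.659 and 1.99 FPKM. For Akr1b10 the leading genes were Ccnd2, a cyclin (0.85), Mlf1 (0.83) and Dbr1, which debranches intron lariats (0.83), and Spearman's rho shared Ccnd2 alone. Groups share stages and control libraries, and the 22 groups include the Nr5a2 KD and NC groups that chose the members. These values therefore describe the patterns and carry no test.

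Other aldo-keto reductases and genes of linked pathways were compared in the 13 tested comparisons. These leave out the single KD at 8C and, apart from 8C against 2C, called at most 0.0167% of all genes. Of 17 gene names searched for other members of the aldo-keto reductase family, 16 were listed and 4 to 7 passed the filter. In the 13 comparisons 0 of them were called. In 8C 4KD embryos their median log2 fold change was 0.29, beside 0 over all genes. Akr1a1, an aldehyde reductase with a mean of 195 FPKM over all libraries, was the most abundant of them and differed by 0.29 (SE 0.33, limma adjusted p 0.933) in that comparison.
Of 20 genes of the polyol pathway and aldehyde handling, 10 to 15 passed the filter and 0 were called in the 12 comparisons other than 8C against 2C in single controls. In that comparison, which called 19% of all genes, 1 was called higher and 3 lower, with a median of -1.05 beside -0.31 over all genes. Sord, which oxidises sorbitol, rose by 4.46 (SE 0.35), and Aldh9a1, an aldehyde dehydrogenase, fell by 2.43 (SE 0.31), as did Gsta4 and Rdh11.
Of 12 redox genes linked to the transcription factor NRF2, 10 to 12 passed the filter and 0 were called in the same 12 comparisons. From 2C to 8C, 2 of 12 were called lower, Nqo1 and G6pdx, a share near the 19% called over all genes, and the median was -1.23. In embryos spared Nr5a2 siRNA against the other 3KD groups, all 10 tested genes had negative values with a median of -0.41, beside -0.0014 over all genes, and none of them passed.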

How the data were processed

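Per the study's methods, paired-end Smart-seq2 reads were trimmed and mapped to mm9 with TopHat, and the authors deposited 1 table of gene FPKM per library, made with Cufflinks on refFlat genes. Read counts were not used here, so the precision of a value is known only through the spread between libraries and a relative depth read from the spacing of low values. Of 113 samples, 92 had such a table and 21 were not analysed here. The 4 members and the gene lists were chosen with earlier results of these data known.

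Genes with a mean of at least 1 FPKM in at least 1 compared group were transformed to log2(FPKM + 1), a scale that understates the change of low genes, and fitted in R 4.3.3 with limma 3.58.1, with 1 fit per experiment, a mean-variance trend and Benjamini-Hochberg adjustment over all genes tested. Calls required an adjusted p below 0.01 together with a log2 fold change of 2 or more in size. Named genes beside the members were the siRNA targets, the flanking genes, the 3 most similar genes and at most 4 abundant genes of each list, and Gsta4, Rdh11 and Nqo1 were named after their values were seen, because they were called. Sequences came from GENCODE vM1 on mm9 and from RefSeq GRCm38.p6, which held promoters of 3 of the 4 members, and copies were sought with BLAST 2.17.0. The fits were tested on simulated data. Same-numbered 3KD libraries deviated together (r of 0.278 to 0.513 for every pair), which meets the criterion for pairs, while the 4KD (-0.297 to 0.346), single KD (-0.040 to 0.141) and 2C KD (0.004) numbers did not. The 3KD values in the text come from the fit without the block, and the block is an alternative.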

Additional observations from a re-analysis of the deposited data

Results flagged for a closer look

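Groups of 8 single embryos were examined, 1 gene at a time, for a library far from the others. The measure was the gap to its nearest neighbour as a share of the group's range. Of 11 such sets of 1 gene in 1 group, 4 held one. The limit used is meant for normally distributed values, which FPKM with many values at 0 are not, so no rate by chance is given. Where all embryos but 1 are listed at 0, the gap fills the whole range. In the 2C sgRNA group 1 embryo held 34.7 FPKM of Akr1b8, and the next highest held 5.49 FPKM. In the 2C BE group 1 embryo held 16.0 FPKM of Akr1b8, with 8.60 FPKM next. In the 8C sgRNA group 1 embryo held 3.35 FPKM of Akr1b10, with 0.567 FPKM next, and this embryo was the 1 of its group with Akr1b8 listed at 0. In the same group 1 other embryo held 0.598 FPKM of Akr1b7 and the other 7 were listed at 0. No cause was tested for any of them.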

How the results depend on the processing

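Of 439 alternative values, 422 were counted as unchanged. For tested differences this meant the same direction and the same side of the limits. For the single KD it meant a value within the pooled SD. Counts of members called, lists of similar genes and the permutation test were also included. Most comparisons called no gene at all, so staying under the limits says little. Of the 439 values, 184 left out 1 library, in part libraries outside the contrast, which cannot move its difference. The small log2 difference of Akr1b8 in embryos spared Nr5a2 siRNA against NC was -0.02 with median-ratio scaling and -0.026 with quantile normalization, and ranged from -0.59 (without replicate 2 of the spared group) to 0.91 when 1 library at a time was left out. Leaving out 1 library at a time moved the 2C KD values of Akr1b7 from -1.54 to 0.47 (without KD replicate 1) and of Akr1b10 from -1.86 to 0.55 (without KD replicate 2). The fitted value of Akr1b8 after single Nr5a2 KD, listed at 0, is set by the pseudocount (-4.84 at 1 and -8.12 at 0.1) and gives no size. For 2C editing, Akr1b8 differed by 0.20 against sgRNA alone, 0.013 in the eBE run, -1.34 against BE alone and -1.93 in the BE4 run, with BE embryos as controls. The 8C against 2C difference of Akr1b8 was 2.00 with median-ratio scaling and 1.99 without the embryos that stand apart, both just under the fold limit, and 2.01 against BE alone (limma adjusted p 0.0151). Under an adjusted p under 0.05 with no fold limit, 2 members were called there, beside 9421 of 12991 genes. Akr1b10 was among them but entered that fit only through the 2C groups, so its values are a description. Its fitted difference was -3.35 with a pseudocount of 0.1 and -2.16 against BE alone. The difference of editing effects in Akr1b8 was 0.081 without the 4-cell column names and 0.57 without all embryos that stand apart. With the replicate block, the Akr1b8 difference of 3KD embryos spared Nr5a2 from the others stayed at 2.69 with a limma adjusted p of 0.0208, that of embryos spared Rarg from NC had 0.0642 and that of 8C 4KD embryos 0.433, and the block changed no call of a member. The runs, the 2 kinds of embryo left out together, the permutation test and a block within each stage were chosen after seeing the data. Depth limits what can be said of values near 0.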

Other observations

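The values of Akr1b3 across 92 libraries gave an inverse reading of library depth. Before scaling, the highest of the 87 values above 0 was 4.26 times the lowest. After each was multiplied by its library's relative depth, the highest was 1.29 times the lowest, from 0.00130 to 0.00168. Over the same libraries, Akr1b8 spanned 264 times before and 278 times after. Akr1b3 itself was 1 of many low genes from which relative depth was read.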
